A study of Callithrix jacchus with 20 samples.

Results

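Cells sorted on day 4 from marmoset embryoid bodies (EBs) were compared by RNA-seq, the cjPGCLCs against the somatic cells of the same kind of culture. The comparison takes 4 of the 20 libraries of the study, 2 of cjPGCLCs and 2 of somatic cells, and these were chosen by the labels alone. All came from DPZ_cjiPSC#2, a single induced pluripotent stem cell line of the common marmoset that goes back to foetal fibroblasts, so that the results describe 1 line. The cells were kept in cjPSCM, turned into precursors of mesendoderm (pre-ME) with Activin A (ActA) and the GSK3 inhibitor CHIR, and then held as EBs with BMP4, LIF, SCF and EGF. The cjPGCLC libraries hold the cells positive for the surface markers of the sort and the somatic libraries the cells negative for them. The labels give these markers as INTα6 and EpCAM in one place and as CXCR4 and EpCAM in another, while the methods of the study name INTα6 and CXCR4. The question put by this design is what sets the sorted cells apart when ActA was present in the pre-ME step, read here over all genes. The same pair of sorted populations from pre-ME made without ActA, 4 further libraries, is given beside it.

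Primordial germ cells (PGCs) are the founder cells of eggs and sperm. In primates they are specified by BMP signals from cells with a mesendoderm-like or amnion-like history, and SOX17, TFAP2C and PRDM1 stand at the head of their transcription factor network. SOX17 also acts in the endoderm, the germ layer of gut and liver, where it is found together with FOXA2 and HNF4A, which PGCs are not known for. Marker genes of both fates therefore have to be read together.

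The cjPGCLC libraries held 12734332 (replicate 1) and 7504206 (replicate 2) reads on genes, and the somatic libraries held 6203030 and 7171565. Reads outside annotated genes made up 20.8% to 22.8% of the counted reads. Levels below are the authors' normalised read counts, that is, counts scaled by DESeq2's size factors, and are given for replicate 1 and then replicate 2. On this scale 3 counts, taken as the floor, stand for 2.54 and 4.27 in cjPGCLCs and 5.31 and 4.47 in somatic cells, and such floors cover counting error only. The difference between the groups was tested on the raw counts with edgeR (quasi-likelihood test, Benjamini-Hochberg adjustment over 15797 genes), and each adjusted p below is from this test. SE is the standard error of a log2 fold change. A gene was called when its adjusted p was under 0.05 and its log2 fold change beyond 2, the thresholds of the study. Fold changes are cjPGCLCs over somatic cells. Where both somatic libraries held 0 reads, the fold is a lower bound against 3 counts per library. Where each held 3 reads or fewer but not both held 0, the summed reads scaled by the size factors are given as a counting ratio, with its exact 95% interval (Clopper-Pearson, counting error only) in parentheses.

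The difference between the sorted cells lay mostly on one side. With edgeR, 223 genes were called higher in cjPGCLCs, which is 1.41% of the genes tested, and 26 were called lower, which is 0.165%, together 1.58%. By adjusted p alone 581 genes (3.68%) were higher and 183 (1.16%) lower, and 2480 (15.7%) had an unadjusted p under 0.05. The median log2 fold change of all tested genes was 0.007. Of the 223 genes, 83 had 3 counts or fewer in both somatic libraries, while 2 of the 26 genes were that low in both cjPGCLC libraries. DESeq2 called 194 genes higher and 18 lower, of which 191 and 16 were among those of edgeR. A fit without 1 library leaves 1 library in its group and has less power, so that lost calls need not mean a smaller change. The counts moved with each of the 4 libraries left out. They were 138 higher and 14 lower without somatic replicate 1, 100 and 9 without somatic replicate 2, 121 and 3 without cjPGCLC replicate 1, and 245 and 47 without cjPGCLC replicate 2. With edgeR's glmTreat, which asks whether a change exceeds the fold threshold, 17 genes were higher and 0 lower, with 12 lower at an unadjusted p under 0.05.

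**Figure D1:**
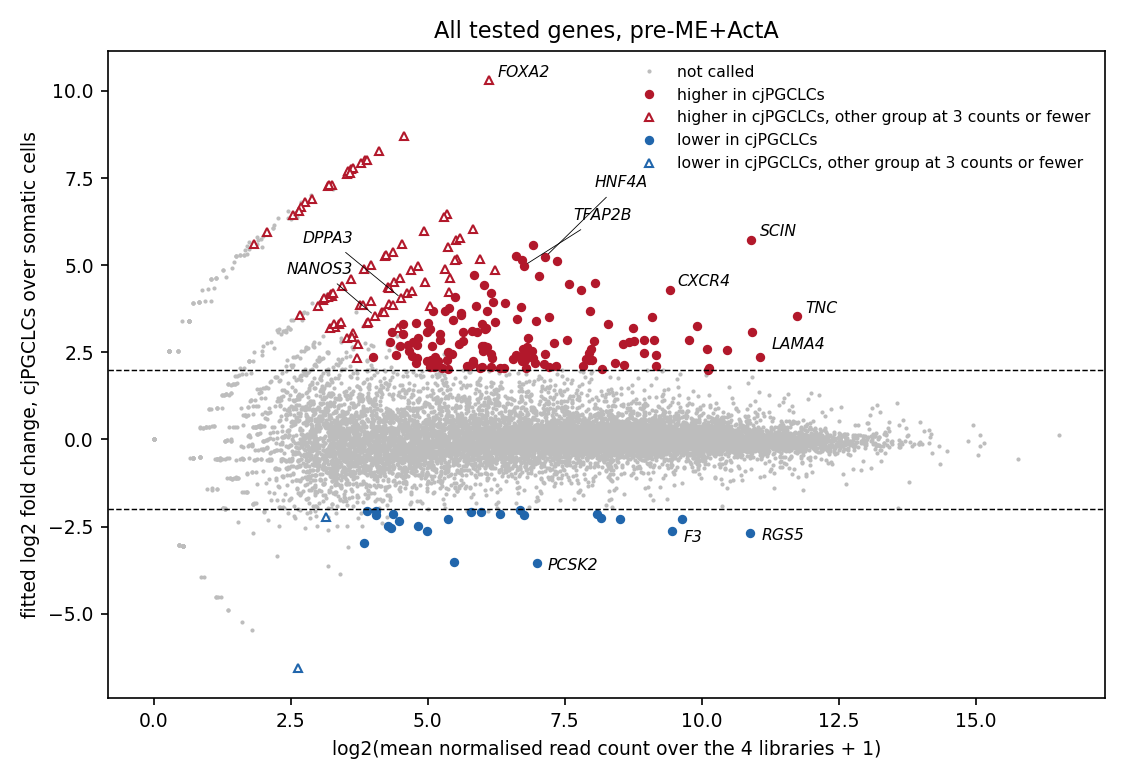
Each point is 1 of the 15797 tested genes, with its mean level over the 4 libraries on the x axis (log2) and its fitted log2 fold change, cjPGCLCs over somatic cells, on the y axis. Red and blue mark the 223 genes called higher and the 26 called lower, open triangles have 3 counts or fewer in both libraries of the lower group so that their height depends on the model, and dashed lines are the fold threshold.

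The genes of the sorted proteins were looked at first, and since they chose the cells they are a description only. CXCR4, the receptor that guides migrating germ cells, was at 1317 and 1275 in cjPGCLCs and at 76.1 and 58.1 in somatic cells. ITGA6, which encodes INTα6, was at 2277 and 1206 against 218 and 149. EPCAM, an epithelial adhesion gene, was at 1204 and 472 against 140 and 167. All of them were higher in both cjPGCLC libraries than in either somatic library, and for ITGA6 and EPCAM replicate 1 was well above replicate 2.

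Genes of early PGCs were higher in the cjPGCLCs in part. Of the 20 genes of this list that were tested, 5 were called higher and 0 lower, against 1.41% of all genes called higher, and the median log2 fold change of the list was 0.69. SOX17 was at 913 and 1034 in cjPGCLCs and at 143 and 219 in somatic cells. Both cjPGCLC libraries lay above both somatic libraries, with a log2 fold change of 2.42 (SE 0.47, adjusted p = 0.00569). TFAP2C, which encodes AP2γ, was at 113 and 114 against 28.3 and 25.3. Its libraries did not overlap either, and its log2 fold change of 2.09 (SE 0.51, adjusted p = 0.023) lay just beyond the fold threshold. KLF4, a pluripotency factor that the study also counts among PGC-associated genes, was at 230 and 243 against 58.4 and 29.8. Its log2 fold change was 2.45 (adjusted p = 0.000171), and in the starting cjiPSCs in cjPSCM it was at 39.6 and 34.1.

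NANOS3 and DPPA3 were called higher from few reads. NANOS3, an RNA-binding protein that protects PGCs from apoptosis, was at 42.3 and 14.2 in cjPGCLCs and at 3.54 and 1.49 in somatic cells. Its counting ratio was 13.1 (4.27 to 65.3), with an adjusted p = 0.0211. DPPA3 was at 49.9 and 32.7 against 5.31 and 0, a counting ratio of 17.9 (5.91 to 88.6) with an adjusted p = 0.00792. DPPA3 is also known from pluripotent cells, and in the starting cjiPSCs in cjPSCM it was at 69.7 and 105, above both cjPGCLC libraries, while NANOS3 was at 8.48 and 1.48 there. The raw counts behind these values were 50 and 10 reads for NANOS3 and 59 and 23 for DPPA3 in cjPGCLCs, and 3 or fewer in each somatic library.

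PRDM1, which encodes BLIMP1 and represses the somatic programme in PGCs, was at 221 and 196 in cjPGCLCs and at 86.8 and 93.9 in somatic cells. Its log2 fold change of 1.22 (SE 0.26, adjusted p = 0.00923) was inside the fold threshold. In the starting cjiPSCs in cjPSCM PRDM1 was at 1175 and 821, above both cjPGCLC libraries, and in the pre-ME with ActA at 295 and 209. The other members of the list were not called. LIN28A was at 4211 and 5057 against 6241 and 5392, and KIT, the receptor of SCF, at 817 and 914 against 1096 and 1309. DND1, an RNA-binding protein of germ cells, was at 17.7 and 17.1 against 19.5 and 20.9. Late germ cell genes numbered 23 among the counted genes and 7 were tested, and edgeR called 0 of them, with 0 at an unadjusted p under 0.05 and 0 by DESeq2. With 1.41% of all genes called higher, a count of 0 of 7 is no result about these genes. DAZL and DDX4, which mark PGCs that have reached the gonad, had at most 1 read in each of the 4 libraries.

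The calls of the early PGC genes differed in whether they were kept with 1 library left out, where the power is lower. KLF4 was called in each of the 4 fits that left out 1 library. SOX17 lost its call only without somatic replicate 1, and its log2 fold change lay between 2.16 and 2.77 over these fits. TFAP2C lost it in all 4, at log2 fold changes of 2.01 to 2.17. NANOS3 kept it only without cjPGCLC replicate 2 (2.50 to 4.22), and DPPA3 lost it without somatic replicate 2 and without cjPGCLC replicate 1. The log2 fold change of DPPA3 was 2.97 to 4.29 in the 3 fits that kept a somatic library with reads of it. The list held 2 called genes without somatic replicate 1, 2 without somatic replicate 2, 2 without cjPGCLC replicate 1, and 4 without cjPGCLC replicate 2. glmTreat called 0 of them.

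**Figure D2:**
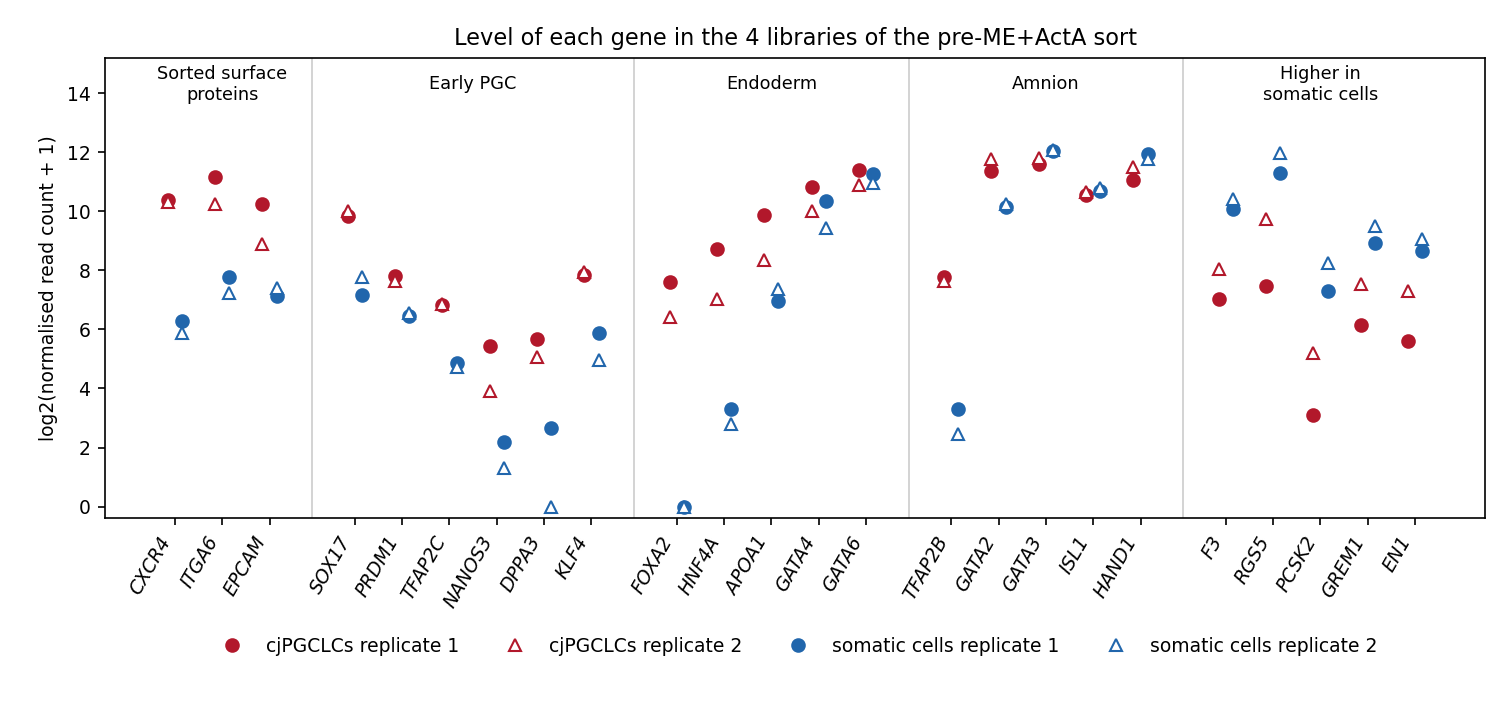
Level of 24 genes in each library as log2(normalised read count + 1), with cjPGCLCs in red, somatic cells in blue, replicate 1 as filled circles and replicate 2 as open triangles. FOXA2 sits at 0 in both somatic libraries and TFAP2B close to the floor there, while for GATA4 and GATA6 the points of the populations overlap. For GATA3, ISL1 and HAND1 both red points lie below both blue ones, and none of these 3 was called.

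In the sort with ActA, endoderm markers were the fixed list with the highest median after the sort markers. Of 13 tested, 4 were called higher and 0 lower, against 1.41% of all genes, and the median log2 fold change was 1.22. This median is the value of CDX2, a gene with few reads. In the sort without ActA the median of the list was 0.95, below that of early PGC genes (1.32). FOXA2, a pioneer factor of definitive endoderm, was at 192 and 83.9 in cjPGCLCs and had 0 reads in both somatic libraries, so that it was at least 28.2-fold higher (adjusted p = 6.48e-05). HNF4A, a nuclear receptor of liver and gut, was at 418 and 131 against 8.85 and 5.96. The 2 populations were far apart, with a log2 fold change of 5.24 (SE 0.73, adjusted p = 0.000377), but cjPGCLC replicate 1 stood well above replicate 2. APOA1, an apolipoprotein of liver and yolk sac, was at 929 and 324 against 122 and 162, a log2 fold change of 2.15 (SE 0.48, adjusted p = 0.0125).

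Other endoderm genes of the list were not called. FOXA3 was at 58.3 and 27.0 in cjPGCLCs and at 15.9 and 20.9 in somatic cells, so that its libraries did not overlap (log2 fold change 1.25, SE 0.67, adjusted p = 0.412). LHX1 had 8 and 9 reads against 3 and 1 (1.48, adjusted p = 0.832), and CDX2 had 4 and 10 against 2 and 2 (1.22, adjusted p = 0.588). SOX7 was at 145 and 152 against 243 and 271, without overlap in the other direction (-0.79, adjusted p = 0.181). Of the secreted carriers in the list, RBP4, which carries retinol, was at 34.7 and 24.2 against 24.8 and 26.8 (0.22, adjusted p = 0.902). APOB, the apolipoprotein of liver and gut lipoproteins, had 2 and 4 reads against 0 and 4 (0.03, adjusted p = 0.999). GATA4 was at 1824 and 1025 in cjPGCLCs and at 1294 and 690 in somatic cells, and GATA6 at 2678 and 1873 against 2474 and 1966, so that the libraries of the groups overlapped for both factors. Both are also used by cardiac and extraembryonic mesoderm. HHEX, of anterior endoderm, was at 128 and 141 against 90.3 and 170. FOXA1, CER1, TTR and AFP had 5 reads or fewer in each of the 4 libraries and did not pass the filter on low counts over all libraries. In cjPGCLCs without ActA, AFP was at 19.7 and 3.15, FOXA1 at 16.7 and 6.30 and TTR at 13.7 and 1.58. The level summed over the 18 genes of the list in the table was 6927 and 4187 in cjPGCLCs and 4303 and 3357 in somatic cells. FOXA2 and HNF4A kept their calls in all 4 fits with a library left out, at fitted log2 fold changes of 4.15 to 5.82 for HNF4A. APOA1 kept its call only without cjPGCLC replicate 2, and its log2 fold change lay between 1.19 and 2.7.

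Further called genes known from liver, gut or yolk sac were named after their values had been seen, and they stand for no list. They were picked among called genes, while APOB and RBP4 of the same tissues were not called, as given above. C3, the complement component, was at 246 and 69.7 in cjPGCLCs and at 17.7 and 4.47 in somatic cells (log2 fold change 3.92, adjusted p = 0.00176). SELENOP, a secreted selenium carrier, was at 177 and 92.4 against 7.08 and 10.4 (3.94, adjusted p = 0.000298). MTTP, which loads lipids on apolipoprotein B, was at 106 and 37.0 against 5.31 and 5.96. GC, the vitamin D binding protein, was at 116 and 41.2 against 0 and 1.49, a counting ratio of 109 (19.2 to 4320) with an adjusted p = 0.00828. SERPINA1 was at 34.7 and 11.4, and RFX6, a factor of gut and pancreas, at 33.0 and 9.95, with 0 reads in both somatic libraries. In each of these 6 genes cjPGCLC replicate 1 was above replicate 2. The calls of MTTP, GC, SERPINA1 and RFX6 were kept only without cjPGCLC replicate 2, with log2 fold changes of 2.69 to 4.21 for MTTP. C3 lost its call without somatic replicate 2, with log2 fold changes of 2.71 to 5.15 over these fits.

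IHH, a hedgehog ligand made by visceral and gut endoderm, was at 264 and 112 in cjPGCLCs and at 10.6 and 0 in somatic cells, a log2 fold change of 5.26 (SE 0.74, adjusted p = 0.000377). With a library left out, the log2 fold change of IHH lay between 4.16 and 10.78, so that its size is uncertain. HHIP, which binds hedgehog ligands at the cell surface, was at 435 and 694 against 62.0 and 52.2 (3.31, adjusted p = 4.55e-05). The former was higher in replicate 1 and the latter in replicate 2.

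The genes with the largest called changes among those with a mean of at least 100 in the higher group included FOXA2, RBM47, SCIN, IHH, HNF4A, GSTO1, ST6GAL2, TFAP2B and MIR9-1HG. SCIN, an actin-severing protein, reached 4217 and 3321 in cjPGCLCs and 95.6 and 49.2 in somatic cells. Its log2 fold change was 5.73 (SE 0.63, adjusted p = 5.46e-05), and in the pre-ME from which the EBs were made it was at 19.2 and 33.7. RBM47, an RNA-binding protein of endoderm, was at 154 and 66.8 against 0 and 2.98, a counting ratio of 75 (20.5 to 623) with an adjusted p = 9.15e-05. ST6GAL2, a sialyltransferase, was at 252 and 380 against 8.85 and 8.94. MIR9-1HG, the host gene of a miRNA, was at 115 and 171 against 5.31 and 4.47, a counting ratio of 27.9 (12.7 to 76.9). GSTO1 was at 144 and 95.3 against 1.77 and 4.47. Its counting ratio was 38.8 (15 to 144), with an adjusted p = 0.00595, and it lost its call without either somatic replicate. The others of the genes named here kept their calls with each library left out.

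The most abundant called genes held matrix, transport and receptor genes. TNC, the matrix glycoprotein tenascin C, was at 7427 and 5120 in cjPGCLCs and at 556 and 529 in somatic cells, a log2 fold change of 3.54 (SE 0.28, adjusted p = 2.14e-06). LAMA4, a laminin chain of basement membranes, was at 3559 and 3648 against 760 and 651 (2.36, adjusted p = 3.68e-06). SLC7A2, a transporter of cationic amino acids, was at 3410 and 3539 against 441 and 382 (3.09, adjusted p = 4.77e-07). ADRA2A, an adrenergic receptor, was at 2478 and 2328 against 531 and 282 (2.58, adjusted p = 0.000262). All 4 kept their calls with each library left out. GPNMB, a transmembrane glycoprotein, and B4GALNT1, a ganglioside synthase, were among the genes with the smallest adjusted p, at log2 fold changes of 4.49 and 2.82 (adjusted p = 1.66e-06 and 2.2e-06).

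Of the laminins 2 of 11 tested were called higher, of the integrins 2 of 19, of the collagens 1 of 41, and 0 of each was lower, against 1.41% of all genes called higher and 0.165% called lower. The median log2 fold changes of these families were 0.48, 0.19 and 0.09. ITGA4 was at 117 and 122 in cjPGCLCs and at 10.6 and 14.9 in somatic cells (3.21, adjusted p = 6.98e-05), and the other called integrin was ITGA6 of the sort. COL10A1 was at 70.1 and 79.6 against 5.31 and 0, a counting ratio of 30.3 (10.2 to 149) with an adjusted p = 0.00469, and lost its call without somatic replicate 2. SEMA3C, a secreted guidance cue, was the 1 called gene of 47 ephrins, Eph receptors, semaphorins and plexins, at 2162 and 1605 against 370 and 261 (2.59, adjusted p = 2.2e-06).

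Epithelial genes were higher in the cjPGCLCs as single genes rather than as whole lists. Of 21 cadherins, desmosome genes and factors of the epithelial to mesenchymal transition 2 were called higher, 0 lower, against 1.41% of all genes called higher, and the median log2 fold change was 0.13. These 2 were ESRP1, an epithelial splicing factor, and OVOL2, a repressor of mesenchymal genes. ESRP1 was at 132 and 44.1 in cjPGCLCs and at 3.54 and 0 in somatic cells, a counting ratio of 61.2 (16.7 to 509) with an adjusted p = 0.00744. OVOL2 was at 37.2 and 14.2 against 1.77 and 0, a counting ratio of 35.4 (6.08 to 1422) with an adjusted p = 0.00852. DSC2 and DSG2 passed the adjusted p with log2 fold changes of 1.04 and 1.03, inside the fold threshold, as did the mesenchymal cadherin CDH11 with 0.71 (adjusted p = 0.00218, 0.0181 and 0.0225). CDH1, the classical cadherin of epithelia and PGCs, was at 6.76 and 7.11 against 1.77 and 5.96, close to the floor in all 4 libraries.

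Among 9 tested claudins 1 was called higher, against 1.41% of all genes, and the median log2 fold change was 0.02. It was CLDN7, at 22 and 9.95 against 0 and 2.98. Further genes of tight junctions and apical polarity were named after their values were seen. CGN, which encodes cingulin, was at 245 and 159 in cjPGCLCs and at 47.8 and 41.7 in somatic cells (log2 fold change 2.20, adjusted p = 0.00157). CRB3 was at 65.1 and 24.2 against 3.54 and 1.49, a counting ratio of 20.5 (6.81 to 101). OCLN was at 33.0 and 14.2 against 1.77 and 1.49, and MARVELD3 at 39.7 and 11.4 against 0 in both somatic libraries. Replicate 1 was above replicate 2 in each of these cjPGCLC values. Without cjPGCLC replicate 1 the calls of ESRP1, OVOL2, CLDN7, CGN, CRB3, OCLN and MARVELD3 were lost, and without somatic replicate 2 those of all but CGN. ESRP1, CLDN7, OCLN and MARVELD3 lost theirs without somatic replicate 1 as well. For CGN the log2 fold change was 1.84 to 2.46 over these fits. DESeq2 did not call CLDN7.

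Few markers of the other cell types that EBs under BMP4 can hold were called. Of 20 amnion markers 1 was called higher, 0 lower, against 1.41% of all genes called higher, with a median log2 fold change of -0.01. That gene was TFAP2B, which also marks neural crest and surface ectoderm, at 219 and 198 in cjPGCLCs and 8.85 and 4.47 in somatic cells (4.99, SE 0.71, adjusted p = 0.000451). GATA2 was at 2622 and 3454 against 1142 and 1215, and TBX3 at 306 and 229 against 86.8 and 89.4. Their log2 fold changes of 1.37 and 1.62 (adjusted p = 0.00102 and 0.00161) were inside the fold threshold. ISL1 was at 1512 and 1608 against 1643 and 1747, and GATA3 at 3116 and 3539 against 4170 and 4322. DLX5 was at 108 and 186 against 335 and 304, a log2 fold change of -1.13 (adjusted p = 0.0381). The summed level of the amnion list was 29841 and 28114 in cjPGCLCs and 28649 and 23989 in somatic cells.

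The counts of mesoderm and blood lists are to be read against 1.41% of all genes called higher and 0.165% lower, and 15.7% at an unadjusted p under 0.05. Of 28 mesenchyme markers edgeR called 0, with 8 at an unadjusted p under 0.05 and 0 by DESeq2. Their summed level was 235692 and 183271 in cjPGCLCs and 239090 and 171484 in somatic cells, so that the libraries of the populations overlapped. Lateral and extraembryonic mesoderm gave 0 of 20 (7 at an unadjusted p under 0.05, 0 by DESeq2), and HAND1 of this group was at 2135 and 2858 against 3934 and 3497. Of 18 markers of the primitive streak and nascent mesoderm, CDX1 was called higher, with 22 and 8 reads in cjPGCLCs and 1 in each somatic library, and the median log2 fold change of the list was 0.33. Of 20 endothelial and blood markers PTPRC was called higher, at 27.0 and 46.9 against 0 and 4.47. The median of that list was -0.29, and by adjusted p alone 2 of its genes were higher and 2 lower. With libraries left out, CDX1 kept its call only without cjPGCLC replicate 2 (2.74 to 3.44), and PTPRC lost its call without somatic replicate 1. In these bulk libraries, fewer cells of a type cannot be told apart from less RNA of its genes per cell. The part of such cells in the endoderm, epithelial and PGC differences was not tested.

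**Figure D3:**
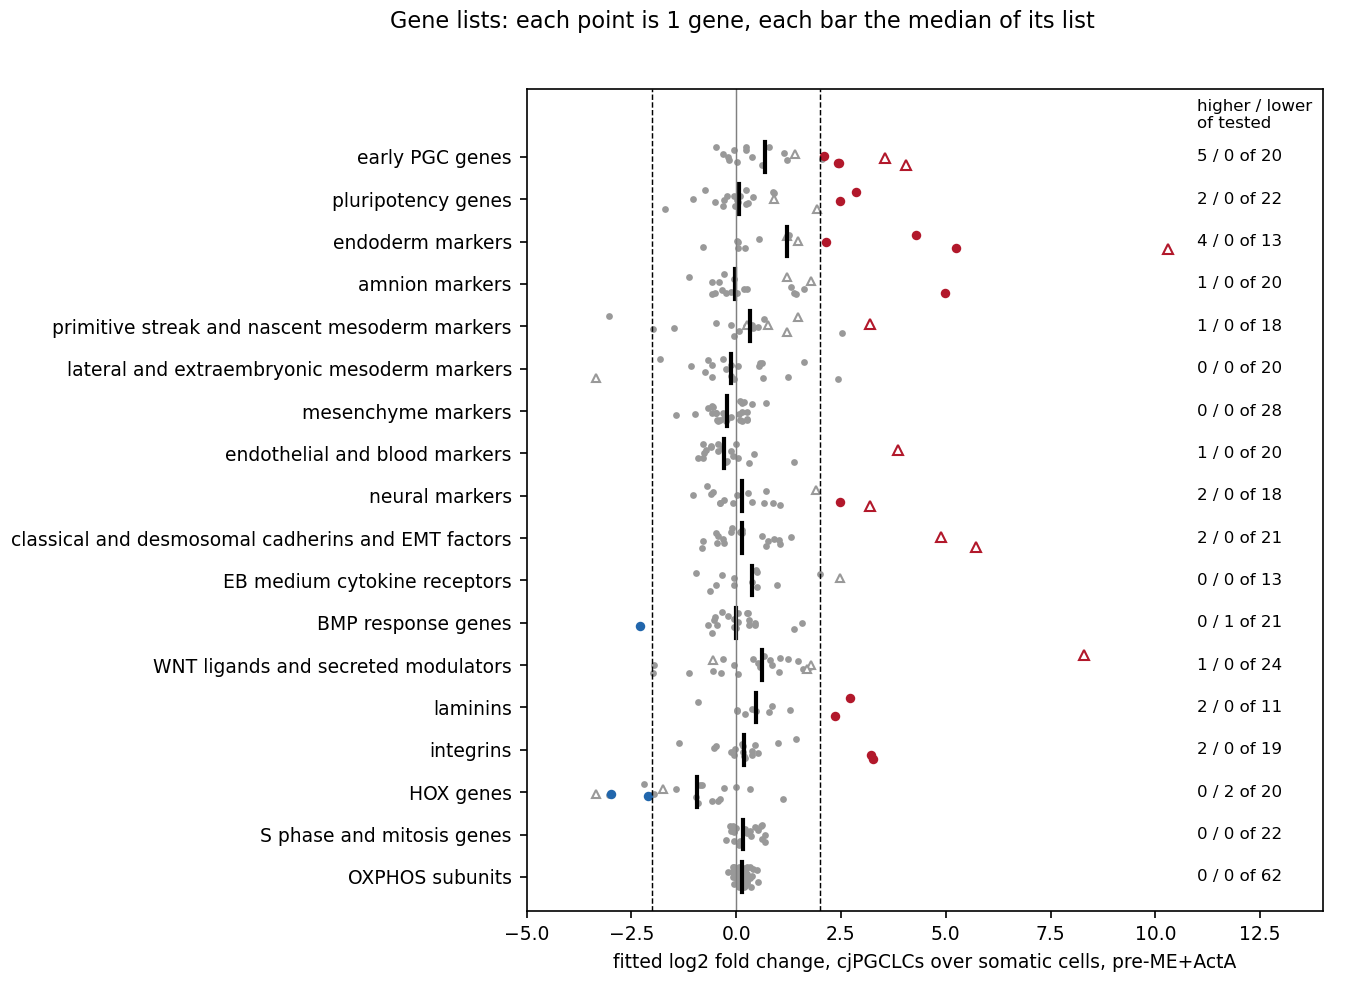
Fitted log2 fold change of every tested gene in 18 of the 47 gene lists, with the genes called higher in red, those called lower in blue, the others in grey and the list's median as a black bar. Triangles mark genes with 3 counts or fewer in both libraries of the lower group, and the numbers at the right are the called genes each way of those tested. The medians of early PGC genes (0.69) and endoderm markers (1.22) lie to the right of 0 and that of HOX genes (-0.93) to the left.

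Pluripotency and neural genes moved one by one. Of 22 pluripotency genes 2 were called higher, 0 lower, against 1.41% of all genes called higher, and the median log2 fold change was 0.07. KLF5 was at 1086 and 653 in cjPGCLCs and at 120 and 124 in somatic cells (2.85, adjusted p = 0.000178). OTX2, which is also in the neural list, was at 430 and 407 against 65.5 and 85.0 (2.48, adjusted p = 0.00542). Of 18 neural markers 2 were called higher, 0 lower, with a median log2 fold change of 0.15. The level summed over the 24 genes of the neural list in the table was lower in both cjPGCLC libraries, at 19484 and 24453 against 32447 and 34808. OTX1 was the other called gene of that list, at 32.1 and 44.1 against 3.54 and 4.47, a counting ratio of 9.04 (3.69 to 28.7). OTX1 and OTX2 lost their calls without either somatic replicate, and the log2 fold change of OTX2 was then 2.31 to 2.68. POU5F1 was at 1380 and 1490 against 1262 and 1184, without overlap, but was not called (log2 fold change 0.24, adjusted p = 0.589). For NANOG the libraries of the groups overlapped, at 136 and 297 against 158 and 203. SOX2, which primate PGCs repress, was at 1094 and 1838 against 2799 and 3245, a log2 fold change of -1.04 (adjusted p = 0.0225), inside the fold threshold.

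The EB medium carries 4 cytokines, and the genes of their receptors were read as a list. Of 13 tested, edgeR called 0, against 1.41% of all genes called higher and 0.165% lower, and DESeq2 called 0. At an unadjusted p under 0.05 there were 9, against 15.7% of all genes. ERBB3, of the EGF receptor family, was at 1111 and 894 in cjPGCLCs and at 326 and 186 in somatic cells. Its log2 fold change of 1.99 (SE 0.24, adjusted p = 0.000107) was the highest, among genes that passed the adjusted p, that did not reach the fold threshold, and DIO2 at 2.004 was the lowest that did. Without somatic replicate 1 or without cjPGCLC replicate 2, ERBB3 was called (1.63 to 2.44 over the fits with a library left out). LIFR, the LIF receptor, was at 1781 and 970 against 753 and 662 (0.98, adjusted p = 0.0266). EGFR itself was at 368 and 330 against 719 and 654, a log2 fold change of -0.96 (adjusted p = 0.00383). Both the last changes lay inside the fold threshold.

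In the signalling lists few genes were called, to be read against 1.41% of all genes called higher, 0.165% lower and 15.7% at an unadjusted p under 0.05. Of 21 BMP response genes 1 was lower, GREM1, and 0 higher. Of 24 WNT ligands and secreted WNT modulators SFRP5 was called higher, at 54.9 and 9.95 with 0 reads in both somatic libraries, and only without cjPGCLC replicate 2 was this call kept. SFRP2, a secreted WNT inhibitor and among the abundant genes of these cells, was at 3331 and 6675 in cjPGCLCs and at 18308 and 20775 in somatic cells. Its log2 fold change of -1.96 (adjusted p = 0.000204) was just inside the fold threshold, and it was called without somatic replicate 1 and without cjPGCLC replicate 2 (-2.55 to -1.54). WNT11 was at 471 and 202 against 136 and 92.4 (1.59, adjusted p = 0.0331), and was called without cjPGCLC replicate 2 (0.84 to 2.05). Of 14 LIF and STAT3 genes BCL3 and KLF4 were called higher. BCL3, a co-activator of NF-κB, was at 59.2 and 41.2 against 15.9 and 5.96, and lost its call without somatic replicate 2 and without cjPGCLC replicate 1 (1.68 to 3.08). The NODAL and Activin list had 0 of 13 called, with 6 at an unadjusted p under 0.05 and 0 by DESeq2.

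The genes called lower in cjPGCLCs came from varied classes. F3, tissue factor of the clotting cascade, was at 129 and 264 in cjPGCLCs and at 1068 and 1355 in somatic cells, a log2 fold change of -2.64 (SE 0.29, adjusted p = 5.46e-05). RGS5, a pericyte regulator of G protein signalling, was at 176 and 860 against 2528 and 4004 (-2.68, adjusted p = 0.00238). PCSK2, a prohormone convertase, was at 7.61 and 35.5 against 156 and 306 (-3.54, adjusted p = 0.000951). GREM1, a secreted BMP antagonist, was at 70.1 and 183 against 487 and 717 (-2.29, adjusted p = 0.00579). EN1, a homeobox factor of midbrain, limb and somite derivatives, was at 48.2 and 155 against 398 and 535 (-2.24, adjusted p = 0.00914). Groups that do not overlap were a condition for naming these genes, so that this is no result about them. In each of them cjPGCLC replicate 2 lay between replicate 1 and the somatic libraries.

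MDGA1, a cell surface protein of neurons, was at 170 and 375 against 1153 and 1479 (-2.29, adjusted p = 0.00191). TMEM158 was at 57.5 and 148 against 400 and 484, and TSPAN8 at 22.8 and 37.0 against 88.5 and 168. F3 and PCSK2 kept their calls with each library left out. RGS5 and MDGA1 lost theirs without cjPGCLC replicate 1, at log2 fold changes down to -1.92 and -1.8. GREM1, EN1, TMEM158 and TSPAN8 lost theirs without cjPGCLC replicate 1 and without somatic replicate 2. The log2 fold changes over these fits were -3.1 to -1.71 for GREM1, -3.27 to -1.58 for EN1, -2.94 to -1.57 for TMEM158 and -2.52 to -1.59 for TSPAN8.

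HOX genes, which give cells their position along the body axis, were the list with the lowest median. It was -0.93 over 20 genes tested, of which 2 were called lower, 0 higher, against 0.165% of all genes called lower. HOXA3 was at 26.2 and 19.9 in cjPGCLCs and at 117 and 85.0 in somatic cells (-2.09, adjusted p = 0.0133). HOXB1 had 0 and 5 reads against 15 and 13. HOXD3 was at 13.5 and 18.5 against 67.3 and 56.6, with a log2 fold change of -1.96 (adjusted p = 0.00792) inside the fold threshold. HOXA13, of the posterior end of the clusters, differed in direction at 1067 and 663 against 545 and 261 (1.12, adjusted p = 0.0377). The call of HOXA3 was lost in all 4 fits with a library left out (-2.32 to -1.85), and that of HOXB1 was kept only without cjPGCLC replicate 2. HOXD3 was called without somatic replicate 2 and without cjPGCLC replicate 2 (-2.18 to -1.72). DESeq2 did not call HOXB1.

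Few genes of the cell division and metabolism lists were called, to be read against 1.41% of all genes called higher and 0.165% lower. Of 22 genes of S phase and mitosis edgeR called 0, with 9 at an unadjusted p under 0.05 (15.7% of all genes) and 0 by DESeq2, but 7 passed the adjusted p and all of these were higher in cjPGCLCs, against 3.68% of all genes higher and 1.16% lower by adjusted p alone. The median log2 fold change of the list was 0.15. They included AURKA at 462 and 455 against 267 and 300 (0.70, adjusted p = 0.00244), PLK1 at 1482 and 1563 against 995 and 914 (0.68, adjusted p = 0.00765), and TOP2A at 6443 and 7230 against 4811 and 4727 (0.53, adjusted p = 0.0122). The libraries of the populations did not overlap in any of these. As these genes were picked among those that passed, this is a description only. CDKN2C, an inhibitor of CDK4 and CDK6, was called higher with 28 and 12 reads against 1 and 2, a call lost in each of the 4 fits with a library left out (2.76 to 3.48) and with DESeq2. Of 47 lists, 23 had no called gene by edgeR, and DESeq2 called 0 of their genes. Among these were the genes of oxidative phosphorylation (0 of 62, 2 at an unadjusted p under 0.05), cytosolic ribosomal proteins (0 of 75, 1), histone modifiers (0 of 26, 0) and DNA methylation (0 of 12, 2). The medians of these 23 lists lay between -0.45 and 0.37. With so small a share of all genes called, a count of 0 in lists of this size is no result about their genes.

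The cjPGCLC replicates differed along the axis of the sort. Of the 223 genes called higher in cjPGCLCs, 165 were higher in replicate 1 than in replicate 2 and 58 lower, with a median log2 difference of 0.43. Of the 26 genes called lower, 5 were higher in replicate 1 and 20 lower, with a median of -0.98. Over all tested genes 8108 were higher and 7639 lower, with a median of 0.01. In the somatic cells the medians between replicate 1 and replicate 2 were 0.15 for the former genes and -0.31 for the latter. Library depth also differed, as given above. Its part in this was not tested. The called genes were chosen from the same libraries, so that these values are a description.

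**Figure D4:**
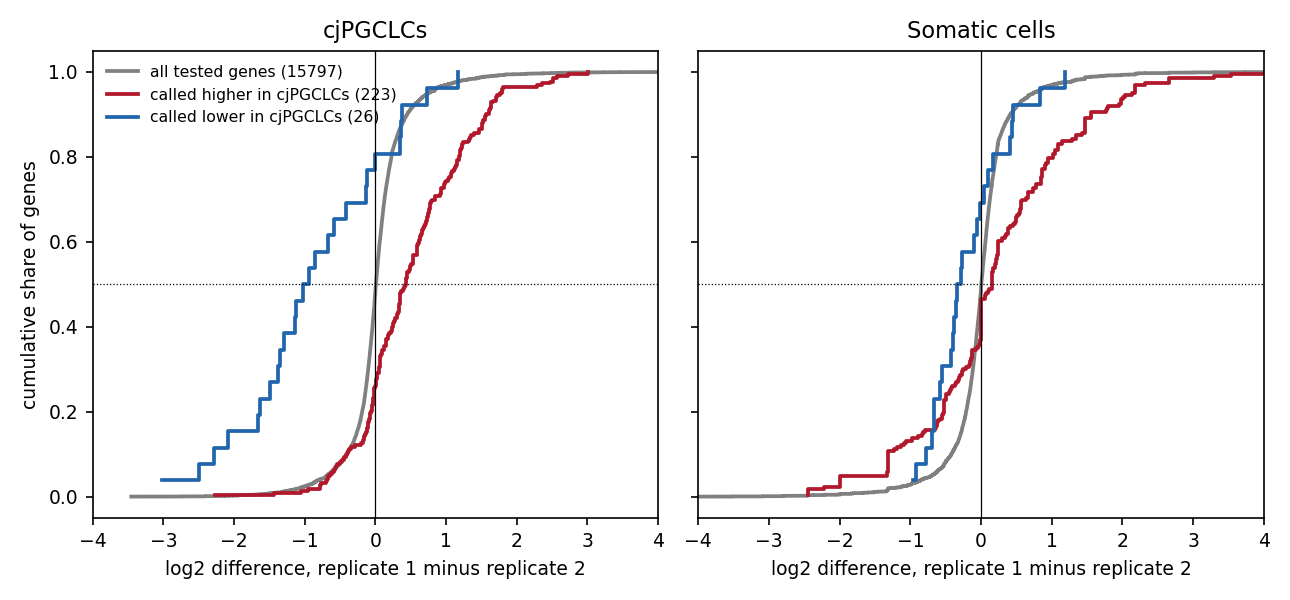
Cumulative share of genes against the log2 difference between replicate 1 and replicate 2 within cjPGCLCs (left) and within somatic cells (right), for all 15797 tested genes, the 223 called higher and the 26 called lower. In cjPGCLCs the red curve is shifted to the right (median 0.43) and the blue one to the left (median -0.98).

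The same sort after pre-ME without ActA used other libraries of the same line. There 378 genes were called higher, 2.39% of those tested, and 71 lower, 0.449%. The lists shared 163 of the higher genes, which is 73.1% of those with ActA and 43.1% of those without, and 12 of the lower genes, 46.2% and 16.9%. Of the 223 genes higher with ActA, 217 had a log2 fold change above 0 without ActA as well, with a median of 3.26 against 3.30, and 0 were called in the opposite direction. Without ActA FOXA2 was at 518 and 356 in cjPGCLCs and at 4.61 and 0 in somatic cells, and HNF4A at 835 and 446 against 9.22 and 1.55. SOX17 was at 2152 and 2096 against 48.4 and 118, a log2 fold change of 4.63 against 2.42 with ActA. The test of this difference gave -2.21 (SE 0.70) with an adjusted p = 0.387, and for FOXA2 and HNF4A the adjusted p was 1 each.

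Over all genes the effect of the sort differed between the ActA conditions for 10 genes at an adjusted p under 0.05, which is 0.0633% of those tested, with 987 at an unadjusted p under 0.05. DESeq2 gave 93 such genes, and the count moved with most other settings too. JADE2, a chromatin reader, had the smallest adjusted p, with log2 fold changes of 1.23 with ActA and 3.11 without (difference -1.88, SE 0.22, adjusted p = 0.00228). It passed in all 8 fits that left out 1 of the libraries of the 2 conditions (-2.03 to -1.76). POU3F2, a neural POU factor, was at 669 and 408 against 411 and 425 with ActA and at 134 and 117 against 394 and 449 without. Its log2 fold change was -1.72 without ActA (adjusted p = 0.000134) and 0.38 with ActA (adjusted p = 0.449). The test of this change gave 2.11 (SE 0.32, adjusted p = 0.0299), and with libraries left out it passed in 1 of the 8 fits, that without cjPGCLC replicate 2 with ActA (1.7 to 2.41).

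**Figure D5:**
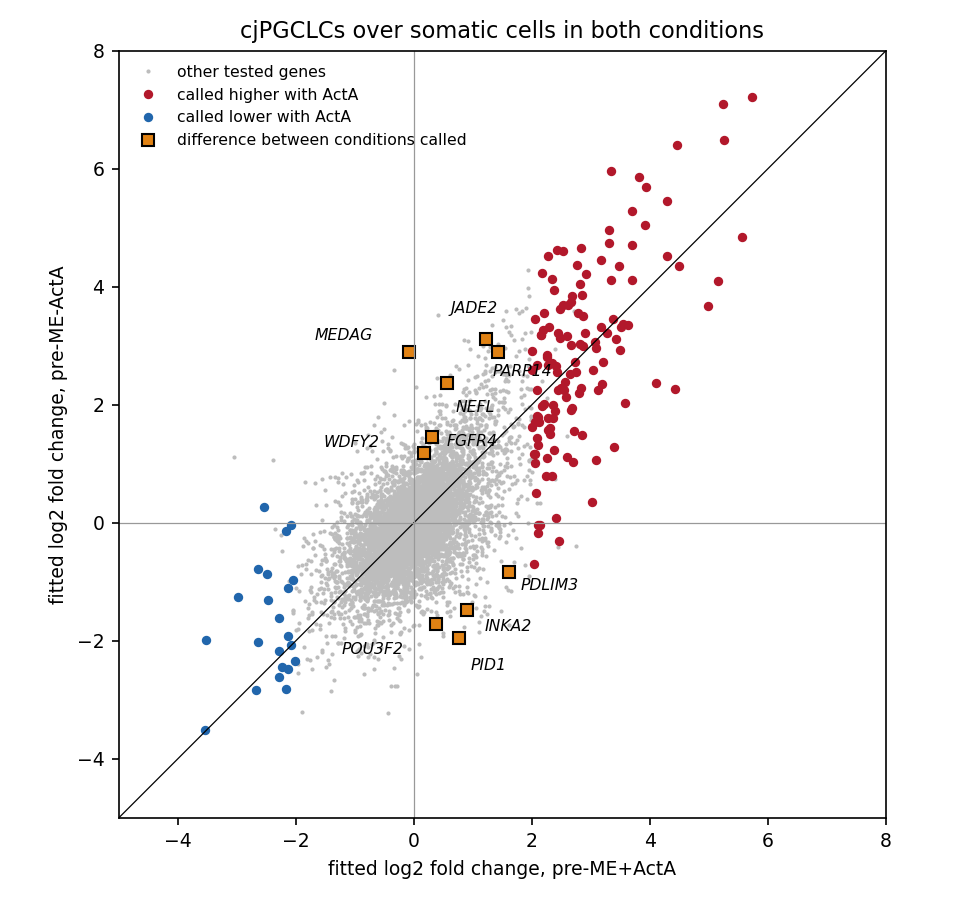
Fitted log2 fold change of cjPGCLCs over somatic cells with ActA (x axis) against that without ActA (y axis) for 14704 genes, leaving out 1093 with a group near 0 reads. Red and blue genes are the plotted ones that were called with ActA. Orange squares are the 10 genes whose difference between the conditions passed the adjusted p, and the line marks equal values. Among the genes left out are the 83 of the 223 called higher that had 3 counts or fewer in both somatic libraries.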

How the data were processed

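The authors made poly(A) libraries, mapped the paired-end reads with STAR 2.7.0a to calJac4, counted them with HTSeq 0.11 and deposited raw counts per gene. They also deposited a normalised signal, each count divided by a DESeq2 size factor. The annotation release and the strand setting are not given in the sources used here, so genes that overlap or have near-identical copies can share reads. Reads outside genes and ambiguous reads (0.273% to 0.287%) were left out. No coordinates are given, since the reference gene table is of another build.

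The test of the raw counts used edgeR 4.0.16 (R 4.3.3), TMM normalisation, edgeR's filter on low counts (15797 of 25102 genes) and 1 coefficient per condition over all 20 libraries (10 residual degrees of freedom). On simulated counts for the comparison with ActA, 200 of 200 genes with a true log2 change of 3 and 0 others were called among 15970 tested. The simulation gave all genes the same spread and changed only genes well above the floor in somatic cells. It therefore cannot speak for genes near the floor, changes close to the fold threshold or genes with uneven replicates.

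Each group had 2 libraries, which the labels call biological replicates. The p-values set a change against a spread between cultures estimated over all 20 libraries, not over the compared ones alone. Members and gene lists were chosen with earlier results of these data known. Genes named were the 10 with a symbol and the largest called change each way (libraries not overlapping, mean of at least 100 in the higher group), the 5 most abundant called, the 5 with the smallest adjusted p, the 5 with the smallest p each way for the difference between conditions, and list members. Some genes that this rule covers are not reported here. Alternatives were DESeq2 1.42.0, its size factors in edgeR, no filter or a mean of at least 1 CPM, only the libraries of a comparison, glmTreat, a replicate block and each library left out.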

Additional observations from a re-analysis of the deposited data

Results flagged for a closer look

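Each group held 2 libraries, so single libraries were not tested as outliers. The effect of the sort differed between the ActA conditions, by edgeR's interaction term with Benjamini-Hochberg adjustment, for 10 genes. In 4 of them the log2 fold change of cjPGCLCs over somatic cells was higher with ActA than without. The difference was 2.11 for POU3F2 (adjusted p = 0.0299), 2.38 for INKA2, 2.45 for PDLIM3 and 2.72 for PID1 (adjusted p = 0.0351 each). PID1, an adaptor of lipoprotein receptors, was at 1314 and 802 in cjPGCLCs and at 809 and 452 in somatic cells with ActA, and at 296 and 202 against 1072 and 902 without. PDLIM3, an actin-associated muscle protein, was at 127 and 89.6 against 44.3 and 28.3 with ActA and at 32.7 and 37.8 against 55.3 and 69.6 without.

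In the other 6 the log2 fold change was lower with ActA. The difference was -1.88 for JADE2 (adjusted p = 0.00228), -1.81 for NEFL (adjusted p = 0.0299), -1.13 for FGFR4 (adjusted p = 0.0341), and -1.45 for PARP14, -2.99 for MEDAG and -1.02 for WDFY2 (adjusted p = 0.0351 each). MEDAG was at 57.5 and 79.6 in cjPGCLCs and at 86.8 and 59.6 in somatic cells with ActA, and at 197 and 132 against 27.7 and 18.6 without. FGFR4, a receptor of FGF19 in liver, was at 603 and 610 against 492 and 490 with ActA and at 1452 and 1232 against 533 and 469 without. Without ActA, NEFL, a neurofilament gene, was at 2656 and 2722 against 514 and 537. With ActA it was at 1696 and 1850 against 1261 and 1157.

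With each of the 8 libraries of the 2 conditions left out in turn, JADE2 passed the adjusted p in all 8 fits (-2.03 to -1.76). PDLIM3 (2.16 to 2.79) and PID1 (2.31 to 3.19) passed in 2, without somatic replicate 1 with ActA and without cjPGCLC replicate 2 with ActA. The others passed in 1, without cjPGCLC replicate 2 with ActA, and their differences over the 8 fits were 1.7 to 2.41 for POU3F2, 2.2 to 2.61 for INKA2, -1.87 to -1.75 for NEFL, -1.24 to -1.0 for FGFR4, -1.52 to -1.38 for PARP14, -3.26 to -2.65 for MEDAG and -1.13 to -0.9 for WDFY2. The difference kept its direction in every one of these fits.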

How the results depend on the processing

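For the sort with ActA, glmTreat gave 17 higher and 0 lower genes (12 lower at an unadjusted p under 0.05), and leaving out 1 library gave 100 to 245 higher and 3 to 47 lower. Counts under the other 6 settings stayed within 1.5 times. Without ActA, glmTreat gave 77 higher and 0 lower genes (27 lower at an unadjusted p under 0.05), and leaving out 1 library gave 256 to 365 and 44 to 53. The difference between the conditions gave 4 genes with a higher effect with ActA and 6 with a lower one. These became 51 and 42 with DESeq2, 172 and 97 without a filter, and 62 and 63 on the libraries of the comparison alone. With a library left out they were 0 to 19 and 1 to 8, with 281 to 547 and 313 to 450 genes at an unadjusted p under 0.05. A replicate block in the model gave 224 higher and 25 lower genes with ActA, 371 and 70 without, and 17 and 8 for the difference, and it called ERBB3 as well. Deviations of same-numbered libraries correlated at 0.111 with ActA and 0.0272 without, across genes, and with 2 pairs the libraries share only a number. The cause of these shifts was not tested. No named gene that was called, as reported or under a setting, changed sign under the settings run. Depth limits NANOS3, DPPA3 and the other genes at 3 counts or fewer in the somatic cells, whose folds are bounds or have wide counting intervals.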
